A study of Mus musculus with 24 samples.

Results

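The tumours described here were B16 melanomas left without therapy, at day 7 and at day 3, with 4 arrays for each day. These 8 arrays were taken by their titles from the 24 arrays of the series, which also hold tumours of mice given Mock or IL-12TD T cells at the same days. All mice had received 500000 B16 cells under the skin at 6 to 12 weeks of age. B16 is a pigmented melanoma line of C57BL/6 mice. The labels of the untreated mice name no irradiation and no transferred cells, and they count the day from "no treatment" without giving the age of the tumour. The Mock and IL-12TD mice, used here only for comparison, were irradiated over the whole body with 5 Gy and given 100000 CD8+ T cells of the pmel-1 strain, 10 to 14 days after the tumour cells. Pmel-1 T cells carry a T cell receptor against the melanocyte protein gp100, and IL-12TD cells were transduced with IL-12 while Mock cells were not. RNA came from frozen single-cell suspensions of whole tumours, so that each value mixes tumour cells with every other cell of the suspension. No label gives a processing batch, so the day and any batch that goes with it cannot be told apart. Replicates carry only a number. The p-values of genes measure the spread between arrays within groups, estimated over all 24 arrays and not from these 8 alone.

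A growing B16 tumour is a mixture of pigmented tumour cells, blood vessels, fibroblasts and infiltrating leukocytes, of which macrophages are usually the largest group. Type I interferon made in such tissue switches on a shared set of antiviral genes. Red blood cells and their precursors carry very large amounts of globin RNA, and any blood left in a suspension brings that RNA with it.

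The cells looked like B16 melanoma on both days. Dct, an enzyme of melanin synthesis, had log2 intensities of 12.87, 12.64, 12.76 and 12.70 at day 3 and 13.07, 12.64, 12.57 and 12.78 at day 7. Tyrp1, another pigment enzyme, was between 12.86 and 13.03 at day 3 and between 12.69 and 13.09 at day 7. Both were among the brightest signals of the arrays, and for both the days overlapped. The interquartile range of an array's log2 values over genes was 2.76 ± 0.14 (SD, n = 4) at day 3 and 2.40 ± 0.12 at day 7, so that values were more compressed on every day 7 array (exact permutation test, two-sided, p = 0.0286, the smallest that 70 assignments allow). Replicate 3 of day 7 stood apart from the other day 7 arrays. It lay at 11.42 on the first principal component of the 8 arrays, against 37.46 to 44.27 for the other day 7 arrays and -39.21 to -26.94 for day 3. Replicate 4 of day 3 stood apart in genes of cytotoxic cells. Gzmb, a granzyme of killer cells, read 4.28, 4.16, 4.45 and 7.61 at day 3 and 3.99, 4.04, 5.11 and 4.32 at day 7, and the perforin gene Prf1 read 5.23, 5.33, 5.18 and 7.09 at day 3. Both are high in that 1 array, whose label is untreated. List counts that moved by over 1.5 times when any 1 array was left out are given without that array. Small counts, such as 0, 1 or 2 members, are not all followed in this way.

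Of 19938 genes tested, 7070 (35.5%) differed between the days at an adjusted p under 0.05 in limma's moderated test with Benjamini-Hochberg adjustment. At day 7, 2250 (11.3%) were higher and 4820 (24.2%) were lower, so that 31.8% of the called genes were higher. Changes of at least 2-fold were found for 242 genes that rose and 610 that fell. After a second quantile normalization of the deposited values, 2484 genes (12.5%) were called higher and 2894 (14.5%) lower, and the higher share became 46.2%. Called in both and in the same direction were 1650 higher and 2753 lower genes. These percentages over all genes are the background for every count of members given here. For lists of bright genes the share called lower was higher, as given next.

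Whether a gene was called lower went with how bright it was. Genes were placed in 10 equal groups by their mean level on the Mock day 3 arrays, which do not enter the comparison. In the dimmest group the median log2 difference between day 7 and day 3 was 0.15, and 0.502% of genes were called lower. In the brightest group the median difference was -0.55, and 66.5% were called lower. The second quantile normalization left 0.02 and -0.22 in these groups. Setting all arrays to a common median and interquartile range left -0.15 and -0.04. In the Mock mice the same groups had median day changes of 0.20 and -0.71. The grouping arrays do enter that change, so these values are not independent of the grouping. Counts of gene lists are therefore given with those after the second quantile normalization where these differ. In the group below the brightest, 56% were called lower, so lists of bright genes have a higher background than all genes. Relative to genes of the same group, the median difference was -0.16 for mitosis, -0.07 for amino acid stress, -0.05 for sterol synthesis and -0.12 for heat shock. It was -0.23 for MHC class I, -0.49 for the proteasome, -0.57 for DNA replication, -0.73 for type I interferon and -0.83 for macrophage genes. Other lists lay above the genes of their group. Their median was 0.5 for ribosomal protein, 0.39 for hypoxia and glycolysis, 0.36 for circadian clock and 0.29 for melanocyte lineage genes.

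**Figure D1:**
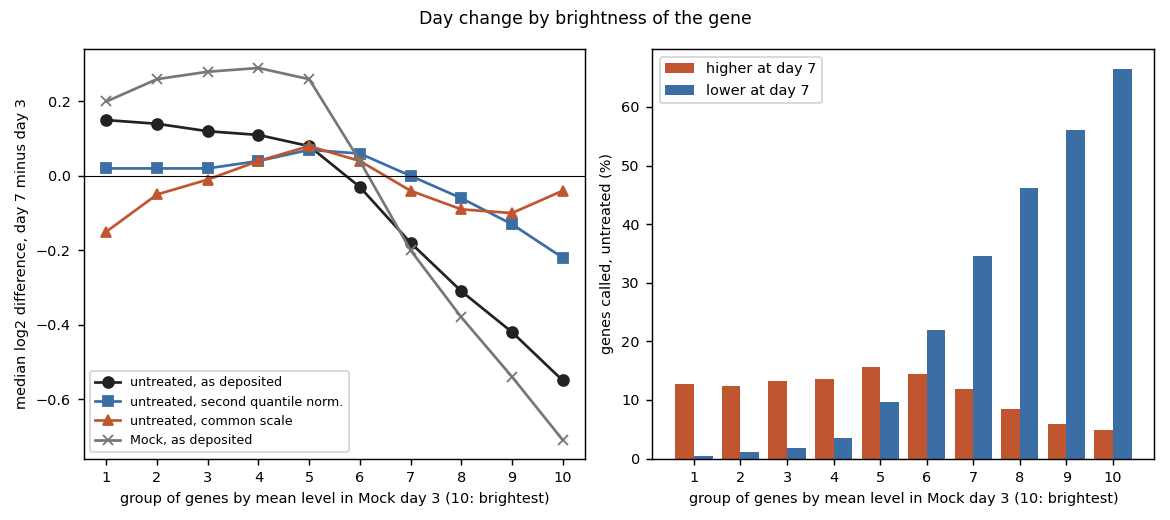
Left, median log2 difference between day 7 and day 3 in each of 10 groups of genes, ordered by mean level on the Mock day 3 arrays, for untreated tumours under 3 scalings and for Mock tumours; right, percent of genes called higher or lower in untreated tumours in each group. The share called lower climbed from 0.502% in the dimmest group to 66.5% in the brightest, while the share called higher ran from 12.8% to 4.81%. The Mock day change uses the arrays that set the groups.

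Globin RNA was far higher at day 7. Globin genes share probesets and so stood outside the tests of single genes. A probeset for Hba-a1 and Hba-a2, the alpha chains of haemoglobin, read 6.96, 8.20, 5.96 and 5.99 at day 3 and 13.10, 13.60, 13.17 and 13.52 at day 7. Every day 7 array was far above every day 3 array. This was a 94.9-fold rise (log2 6.57 ± 0.47 SE, limma adjusted p = 3.78e-09 over all probesets). A beta globin probeset, shared by Hbb-bt, Hbb-bs, Hbb-b1 and Hbb-b2, went from between 5.72 and 6.93 at day 3 to 12.24, 13.06, 12.60 and 12.85 at day 7. That was a 94.7-fold rise (adjusted p = 1.38e-09). The same alpha globin probeset averaged 6.43 at day 3 and 13.46 at day 7 in Mock tumours, and 7.32 and 11.68 in IL-12TD tumours.

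Of 14 erythroid genes listed, 8 had a probeset of their own, and 3 rose (37.5%) and 0 fell, in both settings. Alas2, the first enzyme of haem synthesis in red cell precursors, was at 4.31, 4.32, 4.41 and 4.39 at day 3 and at 7.25, 9.21, 8.58 and 8.69 at day 7. It rose 16.8-fold (log2 4.07 ± 0.29 SE, adjusted p = 1.9e-10), and the groups did not overlap. Slc4a1, the band 3 anion exchanger of the red cell membrane, read 4.97, 5.06, 4.99 and 4.90 and then 6.72, 7.98, 7.17 and 7.29, a 4.97-fold rise (adjusted p = 1.37e-07). Epor, the erythropoietin receptor, rose by log2 0.44 (adjusted p = 0.0138), with overlapping groups. The erythroid transcription factors Gata1 and Klf1 differed by 0.19 and 0.07 and were not called, nor was the transferrin receptor Tfrc at -0.10. Whether red blood cells were lysed, and in the same way on both days, is not given in the sources used here. The part of this globin and red cell RNA in the differences of other genes was not tested.

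**Figure D2:**
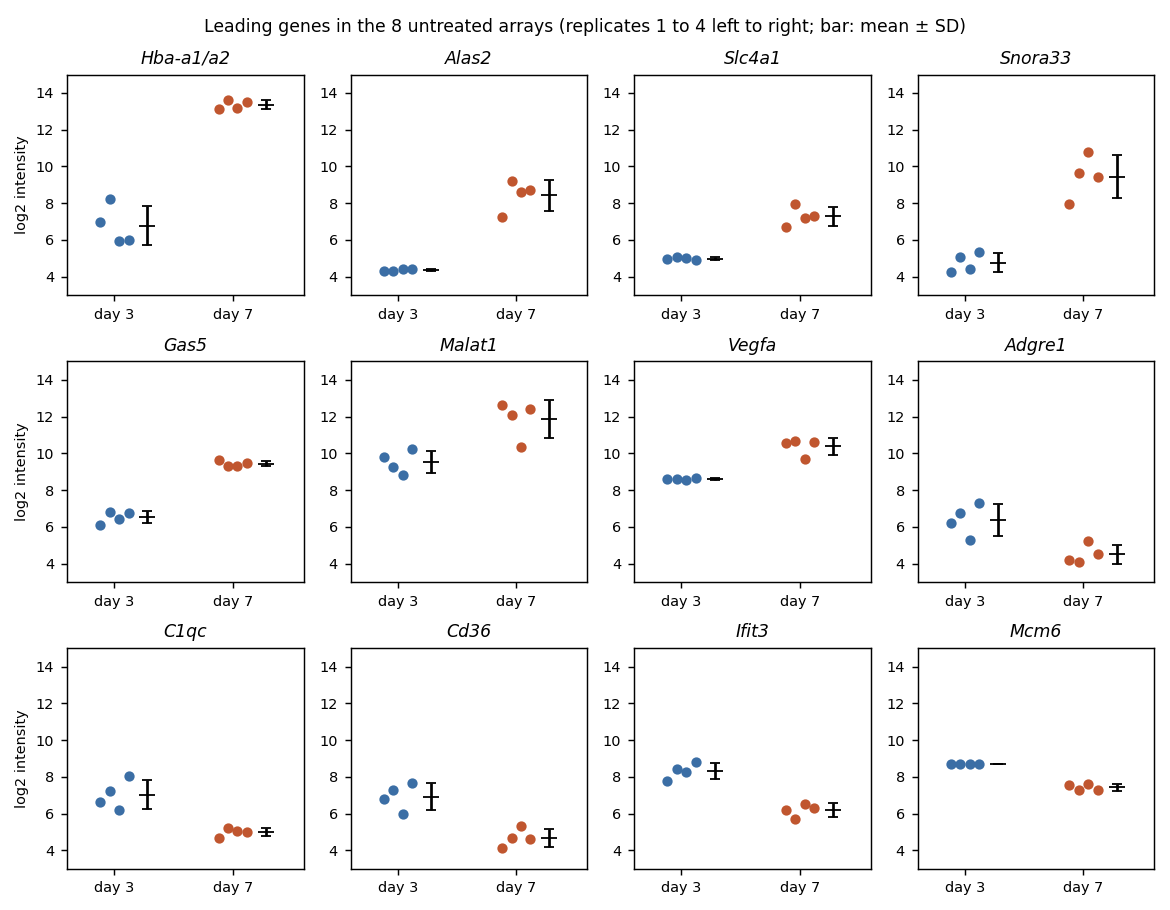
Log2 intensity of 12 genes in each of the 8 untreated arrays, with replicates 1 to 4 from left to right and the mean ± SD of the 4 arrays beside them. Globin, Alas2 and Snora33 stood far higher at day 7, Malat1 and Vegfa were lowest among day 7 arrays in replicate 3, and Adgre1, C1qc, Cd36, Ifit3 and Mcm6 were lower on all day 7 arrays than on any day 3 array.

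Most small nucleolar RNAs were higher at day 7. Small nucleolar RNAs guide the chemical modification and cleavage of ribosomal RNA and are mostly cut from introns of host genes. Of 54 with a probeset of their own, 47 rose (87%) and 0 fell, with a median log2 difference of 1.76 against -0.006 over all genes. After the second quantile normalization 48 rose and 1 fell. The median change of this class was 1.42 in Mock and 2.33 in IL-12TD tumours. Those named next were chosen after their values were seen. Snora33 read 4.25, 5.06, 4.39 and 5.34 at day 3 and 7.95, 9.65, 10.79 and 9.40 at day 7, a 25.8-fold rise (log2 4.69 ± 0.58 SE, adjusted p = 1.43e-06). Snord104 went from 8.52, 9.48, 8.31 and 9.96 to 12.48, 12.60, 12.55 and 12.79 (adjusted p = 1.9e-10). Snord53 had the smallest adjusted p of all genes, 1.29e-12, at a 9.69-fold rise. Snora33, Snora31 and Snora44 were highest of the day 7 arrays in replicate 3, at 10.79, 10.22 and 11.64.

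Several of the largest rises outside this class were host genes of small nucleolar RNAs or other nuclear RNAs. Gas5, a host gene, was at 6.12, 6.82, 6.42 and 6.75 and then at 9.64, 9.31, 9.33 and 9.48, a 7.55-fold rise (log2 2.92 ± 0.18 SE, adjusted p = 8.33e-12). The host genes Snhg17 and Snhg15 rose 4.95-fold and 4.19-fold. Rnu3a, a U3 RNA of ribosomal RNA processing, rose by log2 2.88, and Rmrp, the RNA of the RNase MRP enzyme, by 2.52. Malat1, an abundant nuclear RNA of splicing speckles, read 9.78, 9.28, 8.80 and 10.21 at day 3 and 12.61, 12.10, 10.33 and 12.41 at day 7 (5.07-fold, adjusted p = 3.95e-06). The long non-coding RNAs Firre and Lncpint rose by 2.35 and 2.21. Xist, which coats the inactive X chromosome, rose from 5.20, 5.49, 4.87 and 6.05 to 7.98, 7.55, 6.46 and 7.88 (adjusted p = 2.61e-06). For Malat1, Firre, Lncpint and Xist, day 7 replicate 3 lay lowest of its group, in contrast to the small nucleolar RNAs just named. The Y-linked genes Eif2s3y, Kdm5d and Uty differed by -0.12, -0.10 and 0.05 and were not called. Their levels were too low to pass a filter on dim genes, so the lack of a call tells little. Over 726 long non-coding RNA genes, 173 rose (23.8%) and 15 fell (2.07%), with a median difference of 0.21. After the second quantile normalization 147 rose and 15 fell, with a median of 0.15. The class was dim, with a median level of 4.39 on the Mock day 3 arrays. In the group of genes around that level, 13.2% were called higher and 1.86% lower with the values as deposited. The protein-coding genes among the 15 largest rises were Alas2, Slc4a1, the splicing regulator Rbm25 (2.65), Safb2 (2.15), the centrosome gene Cep152 (2.13) and Kansl1 (2.11), a part of a histone acetyltransferase complex. Gdap10, at 2.42, completed these 15. At Kansl1, day 7 replicate 3 read 6.54, beside 9.31, 8.15 and 8.93.

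Some microRNA genes also rose. Of 297, 99 rose (33.3%) and 2 fell (0.673%), with a median difference of 0.24. After the second quantile normalization 75 rose and 8 fell. These probesets cover the gene or its precursor, so they do not measure the mature strand. The mature strands of 5 loci with large rises, chosen after their values were seen, are given from RefSeq (GRCm38.p6), 5′ to 3′, with the seed, bases 2 to 8, in capitals, to show which loci share one. Mir680-1 and Mir680-2 list the same mature strand and so the same seed, and the seeds of the strands given for the other 3 loci differ.
mmu-miR-680: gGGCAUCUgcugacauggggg
mmu-miR-181b-5p: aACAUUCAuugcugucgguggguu
mmu-miR-18a-5p: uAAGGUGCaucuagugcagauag
mmu-miR-15a-5p: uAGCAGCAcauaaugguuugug
Mir680-1 read 4.29, 4.37, 4.36 and 4.39 at day 3 and 7.15, 7.66, 6.87 and 7.38 at day 7 (log2 2.91 ± 0.23 SE, adjusted p = 2.18e-09), and Mir680-2 rose by log2 2.66. Whether the probesets of these 2 copies tell them apart was not tested. Mir181b-1 read 3.48, 3.79, 3.48 and 3.94 at day 3 and 6.52, 6.32, 6.72 and 6.44 at day 7, a 7.08-fold rise (adjusted p = 5.93e-10). Mir18, part of a cluster of oncogenic microRNAs, went from 3.57, 3.05, 3.67 and 4.37 to 6.32, 6.24, 5.89 and 6.37 (5.81-fold). Mir15a went from 4.79, 5.00, 4.74 and 5.71 to 8.28, 6.83, 6.60 and 7.64 (4.84-fold, adjusted p = 1.9e-06). The groups did not overlap at any of these loci.

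Macrophage genes were lower at day 7. Of 17 macrophage and monocyte markers measured, 13 fell (76.5%) and 1 rose, with a median log2 difference of -1.02 against -0.006 over all genes. After the second quantile normalization the same numbers, 13 and 1, were called. In whole tumours, fewer cells of a type and less RNA per cell cannot be told apart. Adgre1, which encodes the surface protein most used to mark mouse macrophages, read 6.18, 6.74, 5.29 and 7.32 at day 3 and 4.20, 4.08, 5.21 and 4.50 at day 7. It fell 3.69-fold (log2 -1.88 ± 0.37 SE, adjusted p = 0.000256), and the groups came closest at replicate 3 of both days, 5.29 and 5.21, without overlapping. C1qc, a chain of the complement protein C1q that macrophages make, went from 6.65, 7.25, 6.19 and 8.04 to 4.70, 5.21, 5.04 and 5.00, a 4.13-fold fall (adjusted p = 9.03e-06). C1qb and the lysosomal protein gene Cd68 fell by 1.71 and 1.72, without overlap. Lyz2, the lysozyme of myeloid cells, fell by 1.93 with overlap, since replicate 3 of day 3 read 8.18 and replicate 3 of day 7 read 8.69. Cx3cr1, the fractalkine receptor, was the marker that rose, by 0.60 (adjusted p = 0.000462). Mean marker levels per array ran from 5.58 to 7.17 at day 3 and from 5.18 to 5.64 at day 7, and these ranges overlapped. Without day 3 replicate 4, 9 markers fell and 1 rose, and without day 7 replicate 3, 12 fell and 1 rose.

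The spread among day 3 tumours was wide here. Replicate 4 of day 3 was highest and replicate 3 lowest for Adgre1, C1qc, Cd68, Lyz2, Ccl8 and Cd36. Genes of all leukocytes followed: 13 of 18 fell (12 after the second quantile normalization) and 0 rose, with a median of -0.79, and Laptm5 (-1.97) and Cd53 (-2.27) led. Without day 3 replicate 4 the number that fell was 8. Ptprc, which encodes CD45, read 5.50, 5.23, 4.41 and 6.28 at day 3 and 4.61, 5.05, 5.46 and 4.54 at day 7, and was not called (adjusted p = 0.225).

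Genes with roles in macrophages were also called lower, though the cells that made this RNA were not measured. In the list of lipid handling, 12 of 14 fell (85.7%; 9 after the second quantile normalization). On a common median and interquartile range 6 fell and 1 rose. Cd36, a scavenger receptor for oxidised lipid, went from 6.79, 7.28, 5.96 and 7.68 to 4.11, 4.70, 5.31 and 4.61, a 4.75-fold fall (adjusted p = 2.38e-05). The lysosomal enzymes Ctsl and Lipa fell by 1.36 and 1.22. Of 13 genes of alternative activation and suppression, 8 fell and 0 rose in both settings. Arg1, which breaks down arginine, read 6.72, 6.78, 5.80 and 7.97 and then 5.62, 5.61, 6.03 and 5.01 (log2 -1.25 ± 0.30 SE, adjusted p = 0.00175), with overlap. Trem2, a lipid-sensing receptor, fell by 1.01 and Mmp12, the macrophage elastase, by 1.41. Nos2, the inducible nitric oxide synthase, differed by -0.27 and was not called (adjusted p = 0.482). Of 10 complement genes 5 fell (3 after the second quantile normalization), among them the receptors C3ar1 (-1.83) and C5ar1 (-0.86).

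The single largest fall was that of Ly96, the partner of TLR4 in sensing lipopolysaccharide. It read 9.36, 9.70, 9.69 and 9.44 at day 3 and 6.59, 6.83, 7.55 and 6.56 at day 7, a 6.34-fold fall (log2 -2.66 ± 0.31 SE, adjusted p = 6.55e-07). Ccl8, a chemokine that draws monocytes, fell 5.13-fold, from 6.76, 6.91, 5.33 and 8.71 to 4.44, 4.29, 4.90 and 4.64. Atp6v0d2, a proton pump subunit found in macrophages and osteoclasts, fell by 2.26. The rest of the 15 largest falls, beside those of other paragraphs, were the amino acid transporter Slc7a8 (-2.05), Uprt (-2.02), the carbonyl reductase Cbr2 (-1.95), the purine enzyme Pnp (-1.90), Tbc1d7 of the TSC complex (-1.77) and Stxbp4 (-1.77). All 15 had day 7 values below every day 3 value, as the rule for naming required.

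Of 24 chemokine genes, 9 fell and 3 rose, against 7 and 2 after the second quantile normalization. Ccl6, Ccl9, Ccl3, Ccl7 and Ccl2, which attract monocytes, fell by 2.06, 1.64, 1.72, 1.58 and 1.45. Ccl20, which attracts cells with the receptor CCR6, rose from 4.56, 4.55, 4.55 and 4.42 to 5.39, 5.74, 5.30 and 5.16 (adjusted p = 8.95e-06). Among 15 inflammatory cytokine genes 6 fell (4 after the second quantile normalization) and 0 rose, led by Tgfb1 (-1.08). The number that fell was 3 without day 3 replicate 4 and 3 without day 7 replicate 2.

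Few lymphocyte and granulocyte markers were called. Of 14 T cell genes 1 rose (Lat, 0.46) and 1 fell (Cd247, -0.33), and of 13 natural killer and cytotoxic genes 0 were called. Cd8a read 4.92, 4.73, 5.05 and 5.23 at day 3 and 4.83, 5.40, 5.44 and 4.61 at day 7. Ifng lay between 4.30 and 4.97 at day 3 and between 4.08 and 4.65 at day 7 (log2 -0.27 ± 0.28 SE, adjusted p = 0.483). Of 18 neutrophil genes 0 were called (1 lower after the second quantile normalization), and S100a8, a calcium-binding protein of neutrophils, stood at 3.40 to 3.86 and at 3.43 to 4.26. Without day 3 replicate 3, 3 neutrophil genes were called lower. Among 9 B cell genes 1 rose (Cr2, 0.29), which was no longer called after the second quantile normalization. Of 10 mast cell and basophil genes the chymase Mcpt4 rose (0.86). Of 13 dendritic cell genes 3 fell and 2 rose, against 2 and 0 after the second quantile normalization. With 1 array left out, between 2 and 4 fell and between 0 and 2 rose. Cd209a, Fscn1 and Irf8 fell by 0.94, 0.84 and 0.79. Cd207 and Clec9a rose by 0.40 and 0.38, and neither rise was called under the second quantile normalization or on the common scale. The levels of most of these lymphocyte genes were low on both days. Pf4, a platelet chemokine, was the 1 called of 5 platelet genes, and it fell by 1.69, while 1 other was called higher after the second quantile normalization.

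MHC class II genes, with which dendritic cells, macrophages and B cells present antigen, fell for 5 of 8 members (62.5%), with a median of -1.04, and the same number fell after the second quantile normalization. H2-Ab1 read 7.99, 7.65, 6.39 and 8.77 at day 3 and 5.36, 6.27, 7.36 and 6.12 at day 7 (log2 -1.42 ± 0.34 SE, adjusted p = 0.00178). H2-Aa and the invariant chain Cd74 fell by 1.48 and 1.55. In each of the 3, replicate 3 was the lowest array at day 3 and the highest at day 7, and the days overlapped there. The number that fell was 5 without day 3 replicate 4 and 6 without day 7 replicate 3. H2-Oa and H2-Ob differed by 0.24 and 0.01. MHC class I presentation genes fell for 7 of 11 and rose for 1, against 3 and 1 after the second quantile normalization. Psme2 of the proteasome activator, the loading factor Tapbp and the trimming enzyme Erap1 fell by 1.09, 1.04 and 1.07 in both settings. Nlrc5, which switches on class I genes, rose by 0.54. A probeset shared by H2-D1 and H2-K1 went from a mean of 9.78 to 8.85 (limma adjusted p = 0.0123 over all probesets). Another probeset of the same genes went from 8.21 to 7.96 and was not called (adjusted p = 0.414).

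Most type I interferon response genes were lower at day 7. Of 21 measured, 14 fell (66.7%) and 0 rose, with a median of -0.97. After the second quantile normalization 12 fell and 1, Oas2, rose. Ifit3, which binds viral RNA complexes, read 7.76, 8.44, 8.25 and 8.80 at day 3 and 6.22, 5.70, 6.54 and 6.33 at day 7, a 4.33-fold fall (log2 -2.12 ± 0.26 SE, adjusted p = 1.37e-06). Usp18, which removes ISG15 from proteins and damps interferon signalling, went from 8.21, 8.57, 8.51 and 8.89 to 6.33, 6.33, 7.08 and 6.46 (4.00-fold, adjusted p = 5.17e-07). Ifit1, the RNA sensor Ddx58, the transcription factor Irf7 and Oas1a fell by 1.57, 1.36, 1.41 and 1.04, all without overlap. Mx1, Mx2, Rsad2, Stat2, Oas2, Oas3 and Xaf1 were not called, at -0.09, 0.51, -0.33, 0.15, 0.50, -0.15 and -0.09. A probeset shared by Isg15 and Gm9706 fell by 0.93 (adjusted p = 0.000334 over all probesets). Unlike the macrophage markers, mean levels of this list did not overlap, from 6.55 to 7.23 at day 3 and from 5.96 to 6.20 at day 7. Without day 3 replicate 4, 13 fell, and without day 7 replicate 3, 14 fell and 1 rose.

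The interferon-stimulated response element, found near many genes that interferon switches on, holds a repeat of the form TTTCNNTTTC. This motif was searched on both strands in the 250 bases upstream of the start site of each gene in the RefSeq table (GRCm38.p6). The 3 genes of the list that fell and hold it are shown with each match in capitals. Overlapping matches run together in capitals, and on the opposite strand the motif reads as its reverse complement.
Ifit1, chr19:34640639-34640888, plus strand: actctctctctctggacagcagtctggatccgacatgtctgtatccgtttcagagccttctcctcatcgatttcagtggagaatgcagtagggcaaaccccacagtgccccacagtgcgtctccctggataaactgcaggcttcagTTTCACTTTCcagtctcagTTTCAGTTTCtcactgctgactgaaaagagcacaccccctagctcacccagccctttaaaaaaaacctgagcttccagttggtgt
Ifit3, chr19:34583279-34583528, plus strand: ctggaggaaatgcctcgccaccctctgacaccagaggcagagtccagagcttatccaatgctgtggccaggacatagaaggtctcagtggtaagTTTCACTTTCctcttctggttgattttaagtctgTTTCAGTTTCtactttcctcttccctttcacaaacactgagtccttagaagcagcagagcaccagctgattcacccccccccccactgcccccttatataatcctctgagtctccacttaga
Oas1a, chr5:120907526-120907775, minus strand: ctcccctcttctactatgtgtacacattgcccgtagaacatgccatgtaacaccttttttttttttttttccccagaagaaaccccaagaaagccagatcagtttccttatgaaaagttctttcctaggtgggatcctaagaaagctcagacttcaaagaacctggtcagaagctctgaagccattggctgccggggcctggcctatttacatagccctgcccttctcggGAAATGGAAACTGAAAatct
Each of the 3 held 2 matches, beginning at bases -104 and -85 from the start site in Ifit1, -156 and -122 in Ifit3 and -20 and -14 in Oas1a. Of 11 list genes that fell and have an entry, 3 held the motif (27.3%), and of 4 that were not called, 3 did (75%). Over all 27025 genes of the table the share was 3.46%. The match is a description of these letters only.

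Interferon gamma response genes fell for 5 of 14 (4 after the second quantile normalization) and rose for 0. Cxcl10, a chemokine for activated T cells, went from 7.79, 8.04, 8.43 and 8.23 to 6.65, 6.56, 6.44 and 6.76 (log2 -1.52 ± 0.28 SE, adjusted p = 0.000128). The GTPase Irgm1 fell by 1.38. Cxcl9 read 5.37, 5.07, 5.00 and 7.64 at day 3 and 4.98, 4.95, 5.46 and 5.61 at day 7. It was high in day 3 replicate 4 alone and was not called (adjusted p = 0.451).

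**Figure D3:**
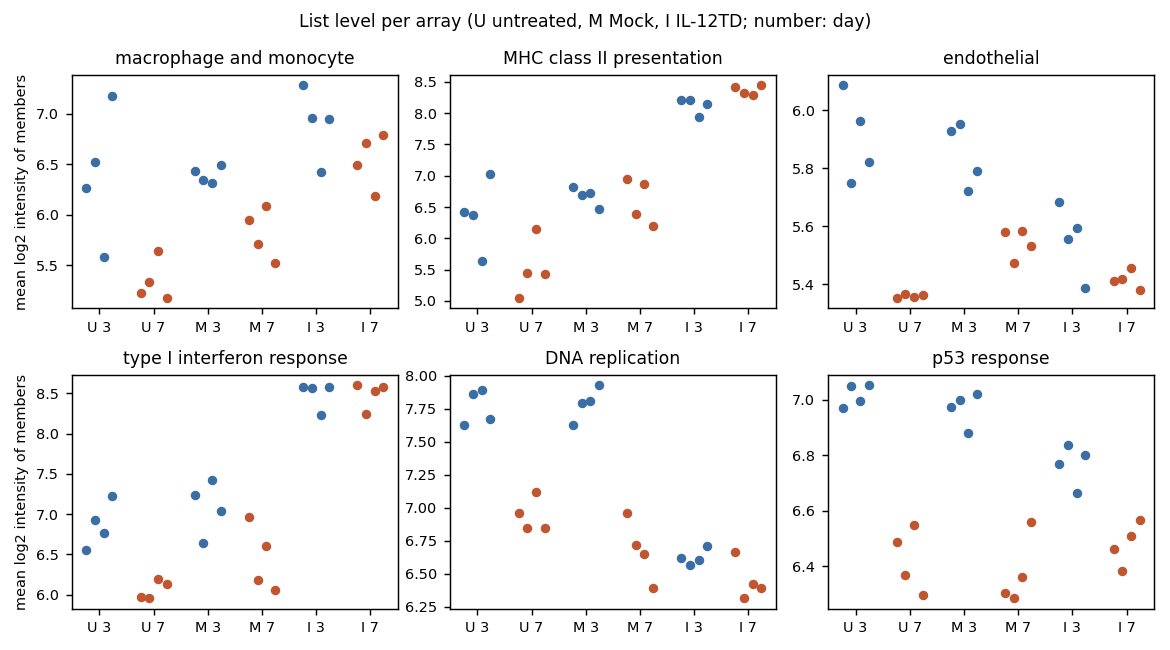
Mean log2 intensity of the members of 6 gene lists on each array, for untreated (U), Mock (M) and IL-12TD (I) tumours at days 3 and 7, with replicates 1 to 4 from left to right in each group. In untreated tumours the days did not overlap for the endothelial, type I interferon, DNA replication and p53 lists, and overlapped for the macrophage and MHC class II lists.

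Vessel genes were lower at day 7. Of 15 endothelial genes 10 fell (66.7%) and 1 rose, in both settings, with a median of -0.57. Emcn, a sialomucin of venous and capillary endothelium, read 6.93, 6.50, 6.73 and 6.86 at day 3 and 5.05, 5.07, 5.74 and 5.04 at day 7, a 2.89-fold fall (adjusted p = 2.82e-07). Cdh5, the cadherin of endothelial junctions, went from 6.69, 6.28, 6.64 and 6.23 to 5.06, 4.86, 5.32 and 5.28 (log2 -1.33 ± 0.16 SE, adjusted p = 1.01e-06). Pecam1, which encodes CD31, fell by 0.96 ± 0.13 SE (adjusted p = 3.64e-06), and the groups did not overlap. The receptor genes Kdr and Flt1 fell by 0.61 and 0.69, and the tight junction gene Cldn5 rose by 0.41. Vegfa, the main growth factor for vessels, moved the other way. It read 8.62, 8.58, 8.54 and 8.67 at day 3 and 10.56, 10.67, 9.67 and 10.62 at day 7, a 3.43-fold rise (log2 1.78 ± 0.20 SE, adjusted p = 5.84e-07). Of 14 angiogenic signals 5 fell and 1 rose, against 5 and 0 after the second quantile normalization. Angpt2, a ligand of the TIE2 receptor, fell by 1.23, and Fgf2 rose by 0.41, which was no longer called after the second quantile normalization.

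Part of the stromal genes were called lower. Of 12 pericyte and smooth muscle genes 5 fell (3 after the second quantile normalization), led by Acta2, smooth muscle actin, at -1.04 and without overlap. Of 20 fibroblast and matrix genes 9 fell (45%; 5 after the second quantile normalization), led by Postn, periostin, at -0.99. Col1a1 read 8.30, 7.49, 7.46 and 8.15 and then 7.36, 7.22, 7.13 and 7.42 (log2 -0.56 ± 0.17 SE, adjusted p = 0.00954), and its adjusted p became 0.294 after the second quantile normalization. Genes of matrix proteases and their inhibitors fell for 11 of 14 (8 after the second quantile normalization), among them Plau, the urokinase, at -1.74, Mmp13 at -1.73 and Mmp2 at -1.22. Of 16 genes of TGF-beta, YAP and matricellular proteins 5 fell, led by Tgfbi (-1.26) and Id2 (-1.21), and 1 rose, Amotl2 (0.51), against 5 and 2 after the second quantile normalization. Of the surrounding tissue, 2 of 9 adipocyte genes fell (Lpl, -1.18, and Fabp4, -0.61), against 3 after the second quantile normalization, and 1 of 15 skeletal muscle genes fell in both settings (Actn3, -0.50). Of 14 keratinocyte genes Perp fell by 1.12 and Sfn rose by 1.02, in both settings.

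Pigment cell genes gave a result that turned with the scaling. Of 18 melanocyte lineage genes 8 fell and 0 rose with the values as deposited, 3 fell and 2 rose after the second quantile normalization, and 1 fell and 7 rose on a common median and interquartile range. The list median was -0.20, -0.06 and 0.40 in these settings. Without day 7 replicate 2, 4 fell. Ednrb, the endothelin receptor of melanoblasts, read 6.31, 6.30, 5.33 and 6.29 at day 3 and 4.65, 4.65, 4.70 and 4.68 at day 7, and fell in each setting with values of -1.39, -1.31 and -1.33. Tyr, the tyrosinase, read 9.78, 9.76, 10.07 and 9.71 and then 9.79, 8.74, 9.11 and 8.94 (log2 -0.68 ± 0.20 SE, adjusted p = 0.00875), with an adjusted p of 0.132 after the second quantile normalization. Mlana fell by 0.41 as deposited, and the difference was 0.40 on the common scale. Pmel, the gp100 gene that pmel-1 T cells recognise, ran from 11.60 to 11.85 and from 11.45 to 11.94, and Mitf, the master regulator of the lineage, from 9.79 to 10.00 and from 9.72 to 10.15. Neither was called with the values as deposited, and both were higher at day 7 on the common scale, by 0.73 and 0.63.

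Genes of DNA replication fell. Of 24 measured, 19 fell (79.2%) and 0 rose, with a median of -0.89, and 17 fell after the second quantile normalization. Mcm6, a subunit of the replicative helicase, read 8.72, 8.69, 8.72 and 8.69 at day 3 and 7.56, 7.26, 7.62 and 7.28 at day 7, a 2.42-fold fall (log2 -1.27 ± 0.12 SE, adjusted p = 5.94e-08). Rrm1, the large subunit of ribonucleotide reductase, went from 9.15, 9.36, 9.39 and 9.23 to 7.78, 7.68, 8.44 and 7.50 (2.70-fold). Pcna, the sliding clamp, fell by 1.19, also without overlap. Of 23 mitosis genes 17 fell and 2 rose, against 9 and 3 after the second quantile normalization. With 1 array left out, between 0 and 3 rose and 16 or 17 fell. The kinase Plk1 read 8.89, 9.08, 9.36 and 8.78 and then 7.50, 7.71, 8.16 and 7.71 (log2 -1.25 ± 0.17 SE, adjusted p = 4.51e-06), and Kif20a and Aurka fell by 1.25 and 0.94. Mki67, a widely used marker of cycling cells, was one of the members that rose. It read 8.48, 8.27, 8.41 and 8.24 at day 3 and 9.02, 8.58, 8.54 and 8.91 at day 7 (log2 0.42 ± 0.15 SE, adjusted p = 0.0349), and it was called in 3 of the 8 fits that left out an array. The kinetochore motor Cenpe rose by 0.42.

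Genes of several bright housekeeping systems were called lower. All 21 proteasome genes measured fell, with a median of -0.96, and 18 fell after the second quantile normalization and 6 on the common scale. Psma1 read 10.04, 10.17, 10.01 and 10.48 at day 3 and 8.76, 8.83, 9.36 and 8.60 at day 7 (2.44-fold lower, adjusted p = 7.76e-07). Of 25 respiratory chain genes 24 fell (96%), against 16 after the second quantile normalization, and on the common scale 7 fell and 1 rose. Ndufv1 of complex I and Cyc1 of complex III fell by 1.17 and 1.11. Of 24 genes of sterol and fatty acid synthesis 18 fell, but 3 after the second quantile normalization, where Insig1 rose. Acly and Fasn fell by 0.90 and 0.88. Without day 3 replicate 3, day 7 replicate 2 or day 7 replicate 4 the number that fell was 10, and without day 3 replicate 2 it was 11. Ribosomal protein genes were brighter still, with a mean level on the Mock day 3 arrays of 10.07 against 9.20 for proteasome genes. They did not follow: 2 of 18 fell and 1 rose (1 and 2 after the second quantile normalization), with a median of -0.05. On the common scale 10 rose and the median was 0.67. Heat shock genes fell for 7 of 9, 3 after the second quantile normalization and 0 on the common scale, where the constitutive chaperone Hspa8 turned from -0.67 to 0.26.

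Genes of hypoxia and glycolysis split. With the values as deposited 6 of 27 rose and 9 fell, after the second quantile normalization 12 rose and 4 fell, and on the common scale 13 rose and 0 fell. The list median was -0.10, 0.28 and 0.44. Vegfa (1.78), the hexokinase Hk2 (0.70), the demethylase Kdm3a (0.61) and the carbonic anhydrase Car9 (0.46) rose in the 3 settings. The glycolytic enzymes Pgam1, Pgk1 and Aldoa fell by 0.80, 0.64 and 0.48 as deposited and were still called after the second quantile normalization. On the common scale these enzymes differed by 0.03, 0.20 and 0.50 and were not called.

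**Figure D4:**
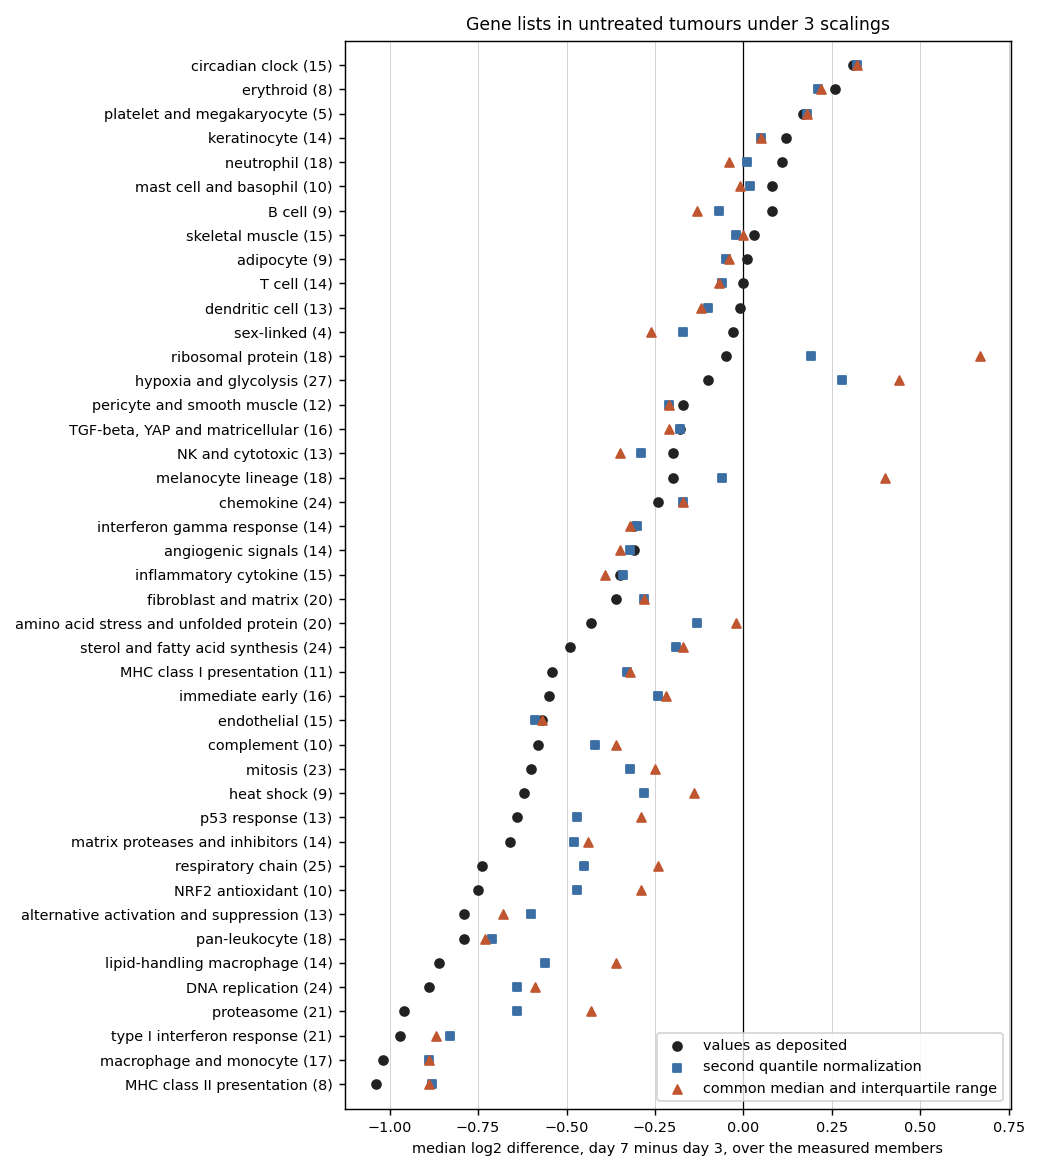
Median log2 difference between day 7 and day 3 over the measured members of each of 43 gene lists (number of members in brackets) in untreated tumours, for the deposited values, after a second quantile normalization and on a common median and interquartile range. The macrophage, MHC class II, type I interferon and DNA replication lists stayed negative under the 3 scalings, while the melanocyte, hypoxia and ribosomal protein medians changed sign.

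Of 16 immediate early genes 9 fell and 2 rose, against 6 and 3 after the second quantile normalization and 5 and 4 on the common scale. Fosb, an AP-1 component, went from 6.04, 7.62, 7.07 and 6.65 to 4.78, 4.94, 5.18 and 4.71, a 3.86-fold fall (adjusted p = 1.9e-06), and the phosphatase Dusp1 fell by 1.44. Klf2 and Ier3 rose by 0.57 and 0.83. Of 13 p53 target genes 8 fell and 0 rose in both settings, led by Plk2 (-1.14), Phlda3 (-0.95) and the death receptor Tnfrsf10b (-1.03). Of 10 antioxidant genes under NRF2 9 fell (6 after the second quantile normalization and 2 on the common scale). Gclc, which makes glutathione, rose by 0.53, and it was called in 2 of the 8 fits that left out an array. Of 20 genes of amino acid stress and the unfolded protein response 13 fell, against 7 after the second quantile normalization. The serine enzymes Shmt2 and Phgdh fell by 0.94 and 0.88, while Ddit3, which encodes CHOP, rose from 8.43, 8.23, 7.76 and 8.41 to 9.09, 9.35, 9.06 and 9.26 (adjusted p = 0.000387). The number that fell in this list was 7 without day 3 replicate 3, 7 without day 7 replicate 4 and 8 without day 7 replicate 2. Of 15 circadian clock genes 5 rose and 1 fell, against 7 and 0 after the second quantile normalization. Per1 read 6.41, 6.75, 7.05 and 6.87 and then 8.54, 8.56, 6.80 and 7.77 (log2 1.15 ± 0.29 SE, adjusted p = 0.00288), and without day 7 replicate 3, 8 rose. Per3, Cry2 and Per2 rose by 0.61, 0.59 and 0.53. Nr1d1 fell by 0.58 with the values as deposited, and that call was lost under both scalings. The hour at which tumours were taken is not given in the sources used here.

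The day change in untreated tumours was set against that in the other arms, which share no array with it. The Mock day 7 arrays were placed by their titles, which name day 7, as do their other labels except the treatment text, which names 3 days. No gene was called between untreated and Mock tumours in the day change: limma called 0 of 19938 (0%), with a smallest adjusted p of 0.676 and 1420 genes at an unadjusted p under 0.05. Across genes the day changes of the 2 arms had a Pearson correlation of 0.89, a description over genes that are not independent. Of the 7070 genes called in untreated tumours, 6035 were also called in Mock in the same direction, which is 85.4% of the untreated and 59.4% of the Mock calls. For Adgre1 the day change was -1.88 in untreated and -1.10 in Mock tumours, for H2-Ab1 -1.42 and 0.04, and for Fosb -1.95 and -0.44. None of these differences was called, and a missed threshold does not show that the arms act alike.

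Against IL-12TD tumours 1816 genes (9.11%) had a higher and 3701 (18.6%) a lower day change in untreated tumours. The higher share of these calls, 32.9%, was 47.9% after the second quantile normalization, 64.3% on the common scale and 17.3% without dim genes, and with each array centred on its median 3037 were higher and 2694 lower. The Pearson correlation of the day changes was 0.47. The largest differences lay in genes that changed in the IL-12TD arm and little in untreated tumours. S100a8 changed by 0.22 in untreated and by -3.69 in IL-12TD tumours (difference 3.91 ± 0.36 SE, adjusted p = 1.86e-07). S100a9, Il1f9, Cxcr2, Csf2 and Hcar2 followed with differences of 3.86, 3.16, 3.02, 3.01 and 2.86. Of 18 neutrophil genes 10 had a higher day change in untreated tumours and 0 a lower one, and 9 and 0 after the second quantile normalization. In the other direction the granzyme Gzmg changed by -0.62 in untreated and 3.63 in IL-12TD tumours (difference -4.25 ± 0.74 SE, adjusted p = 0.000294). Gzmd, the axon guidance gene Slit2, the kinase gene Cdc42bpa, the receptor Epha3 and Gzme had differences of -3.86, -3.39, -2.51, -2.47 and -2.46. Of these, Slit2 fell in untreated tumours, from 6.57, 7.16, 7.17 and 6.92 to 6.23, 6.01, 6.15 and 5.73.

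The type I interferon, DNA replication and MHC class II lists, whose medians were negative in untreated tumours, held genes that differed from the IL-12TD arm. For 12 of 21 type I interferon genes and 13 of 24 DNA replication genes the day change was lower in untreated tumours, against 8 and 6 after the second quantile normalization and 4 and 4 on the common scale, where 2 type I interferon genes had a higher change in untreated tumours. For MHC class II this held for 4 of 8 genes in the first 2 settings and 1 on the common scale. The median day change of that list was -1.04 in untreated, -0.05 in Mock and 0.24 in IL-12TD tumours. Each of these lists started from different levels in the untreated and IL-12TD arms. At day 3 the array means of the type I interferon list were 6.55 to 7.23 in untreated and 8.23 to 8.58 in IL-12TD tumours. For MHC class II they were 5.63 to 7.03 and 7.94 to 8.22. Array means of the DNA replication list in IL-12TD tumours were 6.56 to 6.71 already at day 3. In untreated tumours they were 7.63 to 7.89 at day 3 and 6.84 to 7.12 at day 7. Adgre1 changed by -1.88 in untreated and 0.15 in IL-12TD tumours (difference -2.04 ± 0.52 SE, adjusted p = 0.00588). Alas2 changed by 4.07 and 1.50 (difference 2.57 ± 0.40 SE, adjusted p = 0.000119).

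**Figure D5:**
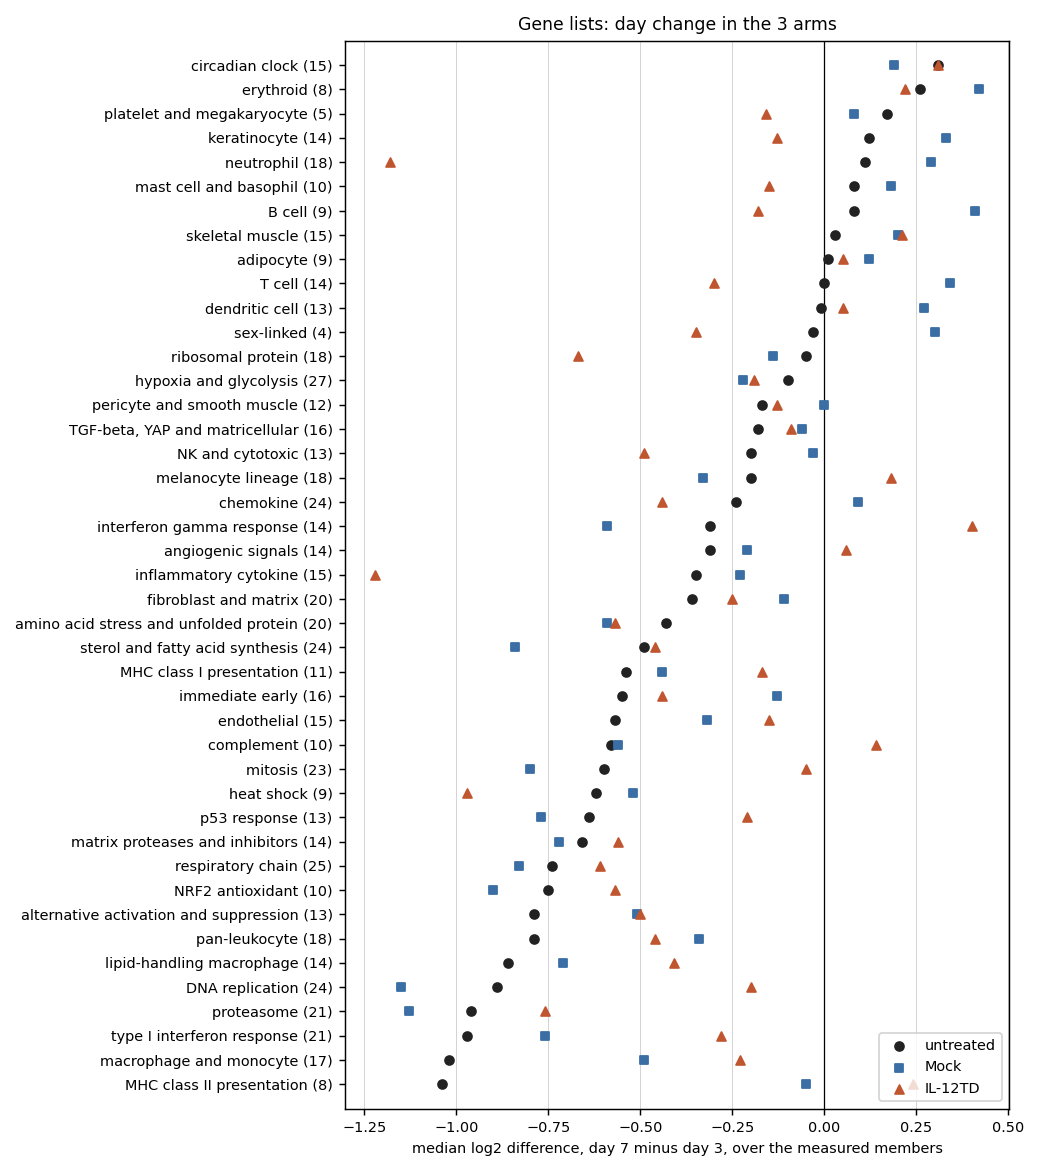
Median log2 day change (day 7 minus day 3) over the measured members of the 43 gene lists in untreated, Mock and IL-12TD tumours, with the lists in the order of the untreated medians. The MHC class II median was -1.04, -0.05 and 0.24 in the 3 arms, and the neutrophil median was 0.11, 0.29 and -1.18.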

How the data were processed

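Total RNA of the tumours was measured on Affymetrix arrays. Each deposited value is the log2 intensity of a probeset, which the authors made with RMA per the submitters' processing notes, with no software version given and no statement of whether all arrays were normalized together. Of 35556 probesets, 21789 list a single gene, and the brightest probeset per gene gave 19938 genes. Day 7 was compared with day 3 by limma 3.58.1 (R 4.3.3; lmFit and eBayes with 6 group means over 24 arrays, which share 1 estimate of the spread) with Benjamini-Hochberg adjustment over all 19938 genes, and called at an adjusted p under 0.05. The fit was tested on simulated data. No 2 arrays hold the same values. Array summaries were compared by an exact permutation test. Named genes are the 15 largest rises and 15 largest falls (called, at least 2-fold, no overlap; predicted genes, clone names, olfactory, microRNA and small nucleolar RNA genes left out), up to 5 members of each of 43 lists with any needed to account for the list, a fixed panel, and the 6 largest differences each way from the other arms. The members and lists were chosen with earlier results of these data known. Of 702 listed genes 651 were measured. Alternatives were 3 other scalings, a filter on dim genes (13424 kept), other priors, array weights, fewer groups, a replicate block, other probeset rules and each array left out. The number of arrays limits the precision.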

Additional observations from a re-analysis of the deposited data

Results flagged for a closer look

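In 446 checks of a group of 4 untreated arrays, over named genes, list means and array summaries, 26 had 1 array far from the other 3, measured as the gap to the nearest array over the whole range and taken where it passed Dixon's critical value for 4 values. Chance gives such a gap in about 1 of 20 groups, and 26 of 446 is close to that share. The checks use the same 8 arrays and are not independent. The gaps listed next are descriptions, and no single one shows that its array differs from the others.

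At day 3, replicate 4 was the array apart, above the others, for the mean of the natural killer and cytotoxic list (gap share 0.862), the mean of the interferon gamma response list (0.830), Gzmb (0.915), Gzmd (0.908) and Cxcl9 (0.860). It lay below the others for Asns (0.956), Ccl20 (0.936), Per3 (0.858), Rbm25 (0.871) and Tnfrsf10b (0.894). The other day 3 cases were replicate 3, below the others, for Ednrb (0.984) and Mmp9 (0.917), replicate 2, above, for Rfc3 (0.928), and replicate 1, above, for Ttn (0.892).

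At day 7, replicate 3 was the array apart, above the others, for Arhgdib (0.835), Ddx58 (0.921), Emcn (0.958), Kif20a (0.871), Psma5 (0.933), Rab27a (0.978) and Sesn1 (0.934), and below them for Cep152 (0.867), Cry2 (0.875) and Vegfa (0.892). Replicate 2 was above the others for Cpa3 (0.847) and replicate 1 for Tyrp1 (0.895).

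Of 60 named genes, 33 differed between untreated and IL-12TD tumours in the day change, by limma's test of the difference with an adjusted p under 0.05. The 6 largest differences each way were named because this same test called them, so the rule for naming put them among the 33. Others were named for a large change in untreated tumours, and that change is part of the tested difference. The 33 of 60 can therefore not be set against the shares over all genes. Over all 19938 genes, 1816 (9.11%) had a higher and 3701 (18.6%) a lower change in untreated tumours. The untreated change was higher, on the log2 scale, for S100a8 (3.91), S100a9 (3.86), Il1f9 (3.16), Cxcr2 (3.02), Csf2 (3.01), Hcar2 (2.86), Alas2 (2.57), Ifng (2.03), Slc4a1 (1.90), Cep152 (1.32), Safb2 (1.07) and Rbm25 (1.01). It was lower for Gzmg (-4.25), Gzmd (-3.86), Slit2 (-3.39), Cdc42bpa (-2.51), Epha3 (-2.47), Gzme (-2.46), Adgre1 (-2.04), Cd36 (-1.76), H2-Ab1 (-1.72), C1qc (-1.64), Slc7a8 (-1.63), Ifit3 (-1.58), Fosb (-1.50), Stxbp4 (-1.27), Usp18 (-1.24), Uprt (-1.19), Lncpint (-1.12), Pnp (-1.04), Tbc1d7 (-0.94), Mitf (-0.89) and Pecam1 (-0.65).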

How the results depend on the processing

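The count of 7070 genes called between the days lay between 4828 and 8736 in the settings run on genes, and was 12349 of 35556 on all probesets. Genes called lower numbered 2894 after a second quantile normalization and 2564 on a common median and interquartile range, against 4820. Genes called higher numbered 6077 on all probesets, against 2250. Leaving out 1 array at a time gave 5740 to 7237 called, 1669 to 2546 higher and 4071 to 4765 lower. Differences from IL-12TD numbered 5517, and 3272 after the second quantile normalization and 8395 on all probesets, with 4233 to 6015 when 1 array was left out. Differences from Mock were 0 in every setting run, leaving out 1 array included. The array median differed between the days by -0.03 over genes (exact permutation p = 0.143, with overlapping days) and was higher at day 7 by 0.215 over all probesets (exact permutation p = 0.0286); the cause was not tested. The interquartile range was lower in both.

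Replicate numbers did not pair the untreated arrays: deviations of same-numbered arrays correlated at -0.139, -0.165, -0.147 and -0.0138, and 0 of 4 arrays correlated best with their own number. With the replicate block 7092 genes were called.

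Of 248 named genes, 13 changed sign, all on the common median and interquartile range: Aldoa (0.495), Hsp90aa1 (0.289), Hspa8 (0.259), Hspe1 (0.090), Mlana (0.401), Pgam1 (0.030), Pgk1 (0.200), Pmel (0.730), Rpl27 (0.070), Rplp0 (0.346), Rps2 (0.764), Slc45a2 (0.132) and Tyrp1 (0.897). The cause was not tested. That setting ended the call of 55 of the 248, genes that changed sign included, and the second quantile normalization that of 25.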
